A study of Mus musculus with 6 samples.

Results

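The histone genes described here are the 20 of 21827 listed mouse genes whose symbol starts with Hist and a number, H2af, H1f or H3f3. The files mix older and newer gene symbols, so that the 20 comprise 8 Hist1h genes, 10 H1f genes, 2 H3f3 genes and 0 H2af genes. By the older symbols of the GENCODE M21 annotation, 82 listed genes would fit the same rule, and 62 of them are listed under newer symbols such as H2bc14, H2ax and H2az1. These 62 are used below for comparison only.

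The study profiled polyadenylated RNA from the distal mandible of mouse embryos at embryonic stage E10.75, in 6 libraries from 3 litters. Each litter gave 1 embryo labelled mutant and 1 labelled control, with 1 library each. By label, the mutant embryos carried Msx1f/f and the control embryos Msx1f/+. Msx1 levels, given below, did not follow these labels in every litter. The labelled groups share Msx2f/f (homozygous floxed Msx2), a Rosa26mTmG/+ reporter, which turns green in recombined cells, and Hand2-Cre, a recombinase under Hand2 regulatory sequence. They differ, by label, at Msx1 alone, a homeobox transcription factor gene. GFP-positive mandibles were dissected and were not described as sorted, so cells outside the Hand2 lineage can be present, and no library came from an embryo without Cre.

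Histone proteins package DNA. Replication-dependent histone genes lie in clusters, are transcribed mainly in S phase, and give mRNAs that end in a conserved stem-loop in place of a poly-A tail. Variant histones such as H3.3, H1.0 and H1.10 are encoded by isolated genes with ordinary polyadenylated mRNAs and are made throughout the cell cycle.

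The symbol alone did not separate these classes. Of the 20 genes, 14 lay in the histone cluster of chromosome 13 (mm10, the GRCm38 assembly), namely the 8 Hist1h genes and the linker histone genes H1f1 to H1f6, which M21 calls Hist1h1a to Hist1h1e and Hist1h1t. The other 6 lay outside it: H3f3a on chromosome 1, H3f3b on chromosome 11, H1f0 and H1f7 on chromosome 15, and H1f10 and H1f8 on chromosome 6. Cluster genes and genes outside it are contrasted by position below, a division made after the files were seen, and the planned division by symbol is given beside it.

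The stem-loop is shown because it is the feature that sets replication-dependent mRNAs apart. A search of the last 200 bases of M21 protein-coding transcripts for 6-base arms starting GG around a 4-base loop starting TT found it in 5 of the 14 cluster genes and 0 of the 6 outside. Among the 50 other clustered histone genes it was found in 19. Of the 18 genes of the wider family outside the clusters, these 6 included, it was found in 1. Counted by transcript and not by gene, it was found in 37 of 58797 in all, or 0.0629%. In the sequences, written as DNA, capitals mark the stem and loop.
Hist1h2bp: acacaaaGGCTCTTTTCAGAGCCacccaca
Hist1h2ao: aaaaaaaGGCTCTTTTCAGAGCCatccaca
Hist1h2ap: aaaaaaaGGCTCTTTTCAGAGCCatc
Hist1h4n: aactaaaGGCCCTTTTCAGGGCCatccaat
Hist1h4m: aactaaaGGCCCTTTTCAGGGCCatc
Hist1h2bp, Hist1h2ao and Hist1h2ap, which encode H2B and H2A, carried the same 16 bases, and the H4 genes Hist1h4n and Hist1h4m shared another 16. The M21 models of Hist1h4m and Hist1h2ap stop 3 bases after the stem, and no match in the other 9 cluster genes says only that these letters are not in the annotated transcript end.

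Promoters of H1f1 to H1f6 are shown because these linker genes lie in the cluster, with that of H1f0 as an example from outside it; the other linker genes outside are not shown. RefSeq windows of the GRCm38.p6 assembly were found for all 20 genes, and the 130 bases before the RefSeq start are printed for these 7. Capitals mark AAACACA (the H1 box), CCAAT and TATAAA on either strand.
H1f1, chr13:23763538-23763667, plus strand: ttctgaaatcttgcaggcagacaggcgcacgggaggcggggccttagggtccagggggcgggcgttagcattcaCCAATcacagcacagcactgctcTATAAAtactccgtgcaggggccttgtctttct
H1f2, chr13:23738677-23738806, plus strand: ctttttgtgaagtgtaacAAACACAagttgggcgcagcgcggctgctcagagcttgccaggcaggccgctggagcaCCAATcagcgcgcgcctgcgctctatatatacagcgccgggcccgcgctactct
H1f3, chr13:23554902-23555031, plus strand: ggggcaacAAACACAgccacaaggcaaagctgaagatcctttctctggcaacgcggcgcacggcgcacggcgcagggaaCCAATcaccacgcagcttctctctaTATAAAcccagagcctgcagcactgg
H1f4, chr13:23622559-23622688, minus strand: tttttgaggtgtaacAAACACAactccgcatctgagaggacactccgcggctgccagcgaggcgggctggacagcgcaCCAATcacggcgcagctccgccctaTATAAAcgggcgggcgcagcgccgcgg
H1f5, chr13:21780626-21780755, minus strand: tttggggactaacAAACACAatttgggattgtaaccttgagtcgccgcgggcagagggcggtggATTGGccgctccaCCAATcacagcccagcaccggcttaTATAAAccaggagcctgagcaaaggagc
H1f6, chr13:23695681-23695810, plus strand: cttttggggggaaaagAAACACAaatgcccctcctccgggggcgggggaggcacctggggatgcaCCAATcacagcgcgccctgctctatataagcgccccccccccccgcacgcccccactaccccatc
H1f0, chr15:79028082-79028211, plus strand: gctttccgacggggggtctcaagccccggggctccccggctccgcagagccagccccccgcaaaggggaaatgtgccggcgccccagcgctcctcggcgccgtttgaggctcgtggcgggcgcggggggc
The H1 box stood 112 to 122 bases before the start of H1f2, H1f3, H1f4, H1f5 and H1f6. Over the full 250 bases it was present in 5 of 14 cluster genes and 1 of 6 outside (H3f3a), against 6.25% of 32851 RefSeq windows. CCAAT was present in 12 of 14 and 3 of 6, against 33.8%, and TATAAA in 8 of 14 and 1 of 6, against 12.4%. No 2 of these motifs share bases in the stretches shown, and the matches are descriptions of letters, not of binding.

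The cluster genes also include divergent pairs. Hist1h2bp and Hist1h2an start 242 bases apart on opposite strands, so that their windows share 239 bases. The Hist1h2bp window is shown because that gene had the highest level of the 20, with CCAAT and TATAAA again in capitals.
Hist1h2bp, chr13:21787238-21787487, plus strand: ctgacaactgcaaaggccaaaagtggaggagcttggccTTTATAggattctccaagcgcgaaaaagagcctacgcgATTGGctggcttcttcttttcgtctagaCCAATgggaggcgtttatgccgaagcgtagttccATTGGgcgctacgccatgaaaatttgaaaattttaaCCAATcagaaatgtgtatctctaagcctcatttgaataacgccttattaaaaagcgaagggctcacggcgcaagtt
It held CCAAT 4 times, counting both strands. The windows of Hist1h2bq and Hist1h2br were identical over 250 bases, and those of Hist1h4m and Hist1h4n were identical when shifted by 1 base.

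Msx1 went against the labels in 2 of 3 litters. Expression is given in TPM, a transcript abundance that divides by transcript length and scales each library to a fixed total. In litter 1 the mutant-labelled library had 1.90 TPM of Msx1 and the control 84.1 TPM. The same order of labels gave 78.8 and 2.61 TPM for litter 2 and 73.3 and 1.99 TPM for litter 3. All results by label below therefore compare libraries as labelled. Because Msx1 is a measured value, libraries were not pooled or tested by it, and each litter is given on its own.

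Marker sums for mesenchyme, endothelium and epithelium were close across libraries, while the low sums and the red cell genes varied more. The 8 markers of distal mandible mesenchyme summed to 965 to 1077 TPM, with Hand2 at 210.0 to 261 TPM. Macrophage markers (5 genes) summed to 2.86 to 7.85 TPM, neuronal markers (4) to 10.5 to 15.5 TPM, muscle progenitor markers (3) to 0.584 to 1.24 TPM, endothelial markers (5) to 67.4 to 80.7 TPM, and epithelial markers (10) to 149 to 171 TPM. Embryonic red cell genes (9) stood at 22543 TPM in the mutant-labelled library of litter 1 and at 6878 to 9723 TPM in the other 5. Mitochondrially encoded genes held 6.02% to 8.03% of the listed TPM. TPM keep no record of depth, so the depth of each library is unknown and precision rests on the spread between embryos.

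Among the H2A and H2B genes of the 20, Hist1h2bp (H2B, chr13:21787461-21789213) was the most abundant, and it varied by litter. Its level was 2265, 1270 and 2736 TPM in the mutant-labelled libraries of litters 1, 2 and 3 and 2173, 1059 and 1973 TPM in the controls. The labelled groups overlapped, and both libraries of litter 2 lay below the other 4. Hist1h2ap (H2A, chr13:21833026-21833507) was at 669, 758 and 857 TPM in the mutant-labelled libraries and 631, 529 and 724 TPM in the controls. It was higher in the mutant-labelled library of each litter, with overlap across litters.

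Lower H2A and H2B genes spanned a wide range. Hist1h2br (H2B) was at 39.9 to 54.3 TPM. Hist1h2an (H2A), the divergent partner of Hist1h2bp, was at 36.2, 53.1 and 59.6 TPM in the mutant-labelled libraries against 22.6, 31.1 and 38.1 TPM in the controls. Hist1h2an was higher in the mutant-labelled library of every litter, although the labelled groups overlapped. Hist1h2ao was at 0 to 5.22 TPM, and Hist1h2bq was listed at 0 in all 6 libraries.

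These zeros sit on nearly repeated sequence. The share of 31-base words found in another M21 gene was 98.3% for Hist1h2bq, mostly with Hist1h2br, 93.8% for Hist1h2ao and 93.4% for Hist1h2ap, mostly with each other, and 89.0% for Hist1h2an. It was 89.5% for Hist1h2br and 50.6% for Hist1h2bp. The authors' counting could divide reads among such copies, so their separate levels are uncertain.

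The H4 genes of the cluster formed another such pair. Hist1h4n (H4, chr13:21831767-21832196) was at 49.5, 42.4 and 66.9 TPM in the mutant-labelled libraries and 27.6, 29.4 and 25.3 TPM in the controls, with no overlap. Hist1h4m was at 5.40 and 4.84 TPM in the libraries of litter 2 and listed at 0 in the other 4. Hist1h4n shared 87.5% and Hist1h4m 91.7% of their 31-base words with other genes, mostly with each other.

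**Figure D1:**
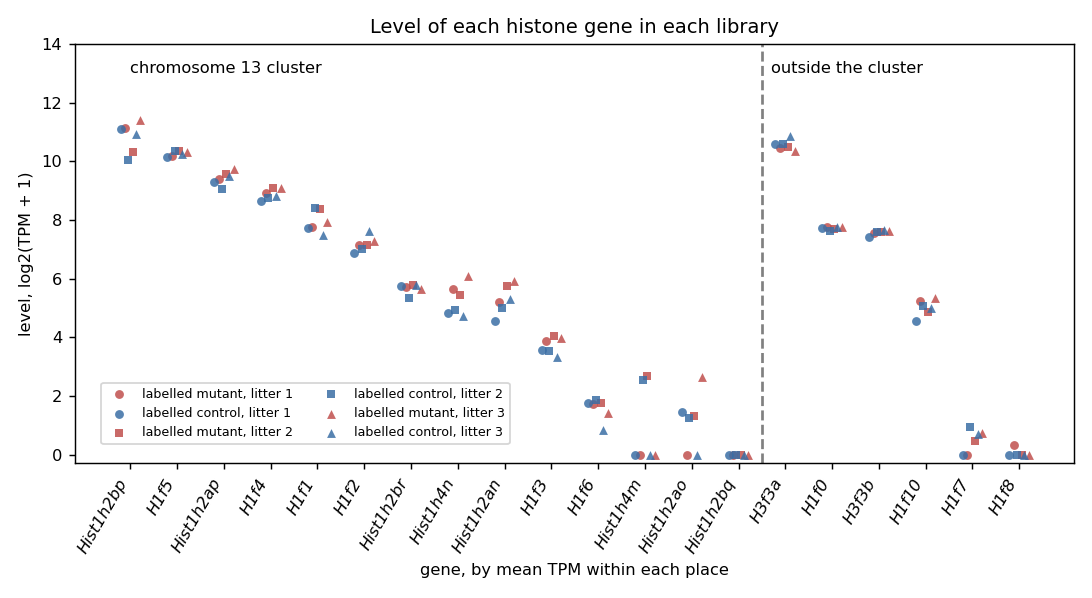
Level of each of the 20 histone genes in each library, as log2(TPM + 1), ordered by mean TPM within the chromosome 13 cluster (14 genes) and outside it (6 genes); color gives the label and shape the litter. Hist1h2bp, H1f5 and H3f3a have the highest points, and Hist1h2bq lies at 0 in all 6 libraries.

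Linker histones bind the DNA between nucleosomes, and the cluster members H1f1 to H1f5 are the somatic subtypes. H1f5 (H1.5, chr13:21779883-21780625) was at 1154, 1291 and 1286 TPM in the mutant-labelled libraries and 1133, 1310 and 1212 TPM in the controls. It made up 50.5% to 53.7% of the summed TPM of the 10 H1f genes and was the steadiest of the abundant cluster genes. H1f4 (H1.4, chr13:23620629-23622558) was at 488, 540 and 549 TPM against 403, 428 and 454 TPM, with no overlap between labels. Its share of the H1f sum was 17.5% to 21.9%, and 34.7% of its 31-base words lie also in other genes, 24.5% in Hist1h2be, an overlapping H2B gene listed as H2bc6.

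The remaining cluster linker genes were lower. H1f1 (H1.1) was at 216, 333 and 245 TPM in the mutant-labelled libraries and 212, 337 and 177 TPM in the controls, with both libraries of litter 2 above the other 4. H1f2 (H1.2), a cluster gene known to give some polyadenylated transcripts, was at 141, 142 and 155 TPM against 116, 127 and 197 TPM, and the control-labelled library of litter 3 was the highest. H1f3 (H1.3) was at 13.6, 15.3 and 14.7 TPM against 10.82, 10.6 and 9.14 TPM, with no overlap. H1f6, the testis subtype H1t, was at 0.793 to 2.61 TPM.

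H1f3 depends on its gene model. The base mean of the authors' deposited table divided by the mean TPM, a quantity that scales with the transcript length assumed, was 86.6 for H1f3, 3.14 for H1f5, 8.22 for H1f2 and 13.5 for H1f4. M21 gives H1f3 a gene of 7425 bases, against 743 for H1f5. The TPM of H1f3 relative to other H1 genes thus rests on the length assumed. A length that is the same in all libraries cancels between them. Of its 31-base words, 3.72% lie in other genes. The RefSeq promoter window shown for H1f3 (chr13:23554902-23555031) lies inside its M21 gene (chr13:23553262-23560686). Whether reads from elsewhere in so long a model entered the level of H1f3, or differed between libraries, was not tested.

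Outside the cluster, H3f3a and H3f3b encode the same replacement histone H3.3, which is deposited independently of replication. H3f3a (chr1:180800832-180813943) was at 1389, 1434 and 1312 TPM in the mutant-labelled libraries and 1528, 1524 and 1842 TPM in the controls, with no overlap and the highest value in litter 3. H3f3b (chr11:116021912-116027962) was at 185, 192 and 196 TPM against 171, 190.2 and 203 TPM. The groups overlapped for H3f3b, although it encodes the same protein.

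The ratio of H3f3a to H3f3b TPM, chosen after the values were seen, was 7.50, 7.47 and 6.69 in the mutant-labelled libraries and 8.93, 8.01 and 9.10 in the controls. Its mean was 7.22 ± 0.456 (SD, n = 3) against 8.68 ± 0.584 (SD, n = 3), with p = 0.1 by an exact two-sided permutation test, the smallest p that 3 against 3 allows. Of the 31-base words of H3f3a, 30.0% lie in other genes (17.1% in Gm17275), and of H3f3b 11.2%.

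The linker variants outside the cluster overlapped between labels. H1f0 (H1.0, a linker histone associated with non-dividing cells, chr15:79028450-79030504) was at 215, 205 and 213 TPM in the mutant-labelled libraries and 208, 195 and 218 TPM in the controls. H1f10 (H1.10, known also as H1X) was at 36.2, 28.3 and 39.3 TPM against 22.3, 32.6 and 31.05 TPM, with overlap. H1f7, a testis gene, was at 0 to 0.911 TPM, and H1f8, an oocyte gene, was at 0.253 TPM in the mutant-labelled library of litter 1 and listed at 0 in the others.

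The 20 genes together held 0.795% to 1.08% of the listed TPM. The 14 cluster genes held 0.692%, 0.618% and 0.837% in the mutant-labelled libraries of litters 1 to 3 and 0.668%, 0.531% and 0.672% in the controls. The means were 0.716 ± 0.111% and 0.624 ± 0.0802% (SD, n = 3 each), with p = 0.4 by an exact two-sided permutation test. The share was higher in the mutant-labelled library of 3 of 3 litters, but the litters overlapped, and the difference of 0.0917 percentage points was 0.0311 without the mutant-labelled library of litter 3, 0.0454 without the control of litter 2 and 0.141 without the mutant-labelled library of litter 2.

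The 6 genes outside the cluster held 0.248%, 0.255% and 0.245% in the mutant-labelled libraries and 0.269%, 0.264% and 0.317% in the controls. The means were 0.249 ± 0.00516% and 0.283 ± 0.0291% (SD, n = 3 each; exact permutation p = 0.1, the smallest possible), and all mutant-labelled libraries lay below all controls. This was carried by H3f3a: without it the difference was 0.00157 percentage points, in the other direction, and without the control of litter 3 it was -0.0174 in place of -0.0342. In whole-tissue RNA, fewer cells of a type and less RNA per cell cannot be told apart.

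The contrast of the classes within a library needs no scaling between libraries. It still rests on capture, since polyadenylated RNA was profiled and replication-dependent mRNAs mostly lack a poly-A tail. Cluster levels here count only the transcripts captured. Whether that capture differed between libraries was not tested, for this ratio or for the other cluster results. The log2 ratio of summed cluster TPM to summed TPM outside was 1.48, 1.28 and 1.77 in the mutant-labelled libraries and 1.31, 1.01 and 1.08 in the controls. It averaged 1.51 ± 0.25 and 1.13 ± 0.16 (SD, n = 3 each; exact permutation p = 0.2). The difference of 0.38 was 0.12 without the highest gene of each class and 0.24 without the mutant-labelled library of litter 3. Divided by symbol as planned, the Hist1h genes held 0.414 ± 0.112% and 0.342 ± 0.0969% (p = 0.4), and the H1f and H3f3 genes 0.551 ± 0.0259% and 0.566 ± 0.0343% (p = 0.5; exact tests, n = 3 each). The log2 ratio of these sums averaged -0.45 and -0.77 (exact permutation p = 0.5). The Hist1h difference of 0.0720 percentage points was 0.0247 without Hist1h2bp, 0.0163 without the control of litter 2, and 0.0169 and 0.129 without the mutant-labelled libraries of litters 3 and 2. For the same 3 libraries in that order the log2 ratio difference of 0.32 became 0.06, 0.14 and 0.56, and it was 0.51 without the control of litter 1. The H1f and H3f3 difference of -0.0145 lay between -0.0315 (without the control of litter 1) and 0.00274 (without that of litter 3).

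**Figure D2:**
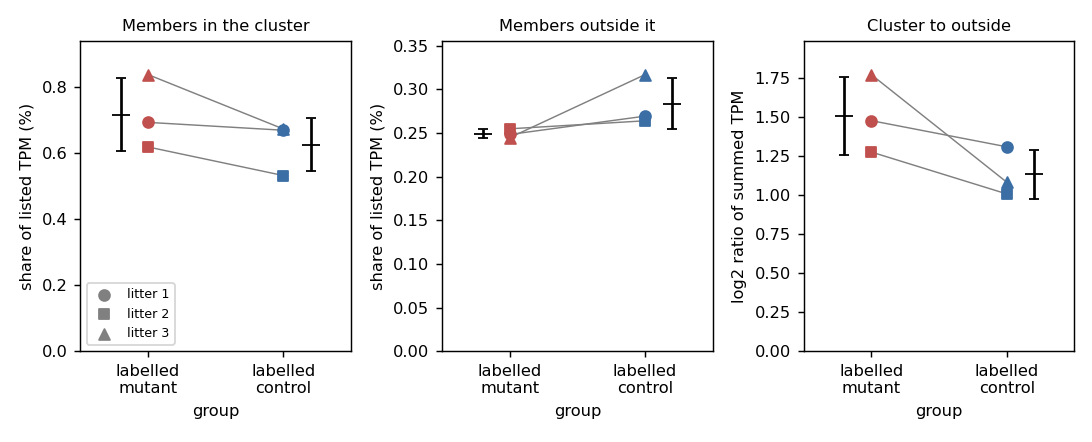
Percent of listed TPM held by the 14 cluster genes and the 6 genes outside, and the log2 ratio of their summed TPM, with 1 point per library, lines joining littermates, and the mean ± SD (n = 3) beside each label. The cluster share spans 0.531% to 0.837% with overlap between labels, while the 3 mutant-labelled libraries lie at 0.245% to 0.255% for genes outside the cluster, below the controls.

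A fit across all genes was then read for the members. limma was run on log2(TPM + 1) for the 12152 genes that reached 1 TPM in 3 or more libraries, with Benjamini-Hochberg adjustment. Of the 20 histone genes 16 passed this filter, 12 in the cluster and 4 outside, and Hist1h2bq, Hist1h4m, H1f7 and H1f8 did not. At adjusted p under 0.05, limma called 0 genes of all tested in either direction (0%), and 0 histone genes. Without adjustment, 4 histone genes were higher in mutant-labelled libraries (Hist1h4n, H1f3, H1f4 and Hist1h2an), against 1.9% of all genes, and 1 was lower (H3f3a), against 4.82%.

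Sizes were modest outside a few genes. The log2 difference, mutant-labelled minus control-labelled, was 0.90 ± 0.16 for Hist1h4n (SE; limma adjusted p = 0.489) and 0.68 ± 0.23 for Hist1h2an (adjusted p = 0.686). It was 0.47 ± 0.11 for H1f3 (adjusted p = 0.669) and 0.29 ± 0.08 for H1f4 (adjusted p = 0.680). For Hist1h2ap it was 0.28 ± 0.13 (adjusted p = 0.727) and for Hist1h2bp 0.26 ± 0.34 (adjusted p = 0.870). For H3f3a it was -0.24 ± 0.10 (adjusted p = 0.719), for H3f3b 0.03 ± 0.08, for H1f5 0.03 ± 0.09 and for H1f0 0.03 ± 0.07.

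All 12 tested cluster genes had a positive log2 difference, with a median of 0.27, and 3 of the 4 outside, with a median of 0.03. Over all genes tested 34.6% were positive, with a median of -0.06, and this share was 49.2% under median-of-ratios scaling and 48.0% under quantile normalization. The 12 became 11 under quantile normalization, where H1f5 was at -0.06, and 9 to 12 when single libraries were left out. The 3 genes whose mutant-labelled libraries all exceeded all controls were Hist1h4n, H1f3 and H1f4, 3 of 16 against 2.73% of all genes tested. H3f3a was the 1 of 16 in the opposite order, against 10.4%.

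The wider family gives the context of the cluster genes. Of the 50 other clustered histone genes, 47 were tested and limma called 0, while 17 were higher at an unadjusted p under 0.05 (1.9% of all genes) and 0 were lower (4.82% of all genes). Among them 43 were positive, with a median of 0.33, and in 12 all mutant-labelled libraries lay above all controls, against 2.73% of all genes. The 64 clustered genes of the family together held 3.08%, 3.22% and 3.81% of the listed TPM in the mutant-labelled libraries and 3.02%, 2.44% and 2.97% in the controls. The means were 3.37 ± 0.384% and 2.81 ± 0.320% (SD, n = 3 each; exact permutation p = 0.1, the smallest possible). The difference of 0.555 percentage points was 0.337 without the mutant-labelled library of litter 3 and 0.371 without the control of litter 2.

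**Figure D3:**
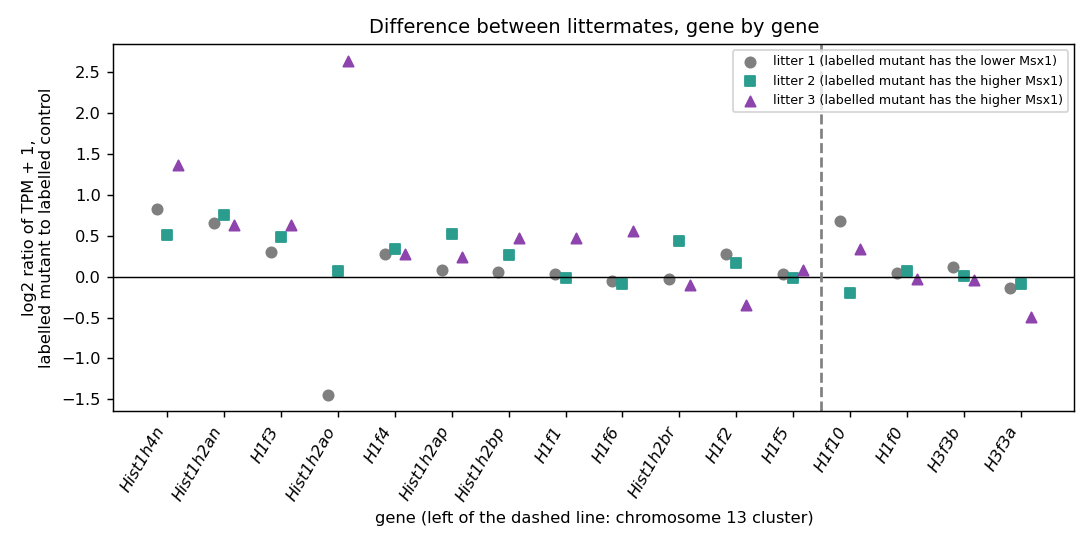
Log2 ratio of TPM + 1 between the library labelled mutant and the library labelled control of each litter, for the 16 tested histone genes, with cluster genes left of the dashed line. Hist1h4n, Hist1h2an, H1f3, H1f4, Hist1h2ap and Hist1h2bp lie above 0 in all 3 litters, and H3f3a lies below 0 in all 3. In litter 1 the mutant-labelled library has the lower Msx1, and in litters 2 and 3 it has the higher.

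Read by Msx1 level, the same littermate differences changed sign in litters 2 and 3. The log2 ratio of the library with Msx1 under 10 TPM to the littermate with over 50 TPM was 0.82, -0.51 and -1.37 in litters 1 to 3 for Hist1h4n. It was 0.27, -0.33 and -0.27 for H1f4, and 0.31, -0.48 and -0.63 for H1f3. For Hist1h2bp it was 0.06, -0.26 and -0.47, and for Hist1h2ap 0.08, -0.52 and -0.24. Each of these 5 cluster genes was thus higher in the low-Msx1 library of litter 1 and lower in that of litters 2 and 3, as was Hist1h2an at 0.66, -0.75 and -0.63.

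The other cluster genes showed other orders. H1f5 stood at 0.03, 0.02 and -0.09, H1f1 at 0.03, 0.01 and -0.47, and H1f2 at 0.27, -0.16 and 0.34. Hist1h2br stood at -0.03, -0.44 and 0.11 and H1f6 at -0.05, 0.09 and -0.56.

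Genes outside the cluster also differed among themselves by Msx1. H3f3a stood at -0.14, 0.09 and 0.49, H3f3b at 0.11, -0.01 and 0.05, H1f0 at 0.05, -0.07 and 0.03, and H1f10 at 0.67, 0.20 and -0.33. Of the 16 tested genes, 1 had the same sign in all 3 litters, against 22.7% of all genes tested in either direction. This was Hist1h2ao, lower in the low-Msx1 library, with ratios of -1.44, -0.07 and -2.64 at levels of 0 to 5.22 TPM. Of the 47 other clustered genes, 9 were lower in all 3 litters and 0 higher. Over all 12152 genes tested, 1443 were lower in all 3 and 1314 higher.

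The low-Msx1 library of litter 1 is also the library with the high red cell sum, 22543 TPM. The 9 red cell genes had positive log2 differences by label, with a median of 0.56. With red cell and mitochondrial genes left out of the denominator, the label difference in share was 0.0993 in place of 0.0917 percentage points for the cluster genes, and -0.0371 in place of -0.0342 for those outside. Their part in single histone genes was not tested.

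The authors' deposited table gives a further comparison on the same 6 libraries, so it is no independent evidence. Its groups are not named. Msx1 has a log2 fold change of -5.19 ± 0.26 (SE) in the authors' deposited table. A negative value there thus stands for a lower level where Msx1 is lower. Each label held libraries with Msx1 under 10 TPM and over 50 TPM, so groups by label could not give this value. In litters 2 and 3 the order by Msx1 is the reverse of the labels. A negative value there and a positive one by label can therefore describe the same difference. No histone gene of the 17 given an adjusted p there was past 0.05 in the authors' deposited table (0 genes), against 14 of 14572 genes (0.0961%). Of the 19 histone genes given an unadjusted p in the authors' deposited table, 0 were under 0.05. Over all 17605 genes given one there, 154 with a positive and 171 with a negative fold change were under it. The authors' deposited table gives 12 cluster genes an adjusted p; 11 of these had a negative fold change and H1f2 a positive one, the median being -0.20. It gives 5 genes outside the cluster an adjusted p, and all 5 were positive (median 0.15), whereas 49.3% of all genes were negative in the authors' deposited table.

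The members' values there were small against their errors. The authors' deposited table gives Hist1h2bp -0.22 ± 0.14 (SE, unadjusted p = 0.107), Hist1h2ap -0.23 ± 0.16 (p = 0.158), H1f3 -0.29 ± 0.20 (p = 0.142) and Hist1h2ao -3.42 ± 2.26 (p = 0.130). In the authors' deposited table Hist1h4n stands at -0.38 ± 0.50, H1f4 at -0.11 ± 0.14 and H1f5 at -0.01 ± 0.11. On the positive side the authors' deposited table gives H3f3a 0.15 ± 0.11 (p = 0.185), H1f2 0.15 ± 0.15 (p = 0.310), H1f10 0.18 ± 0.39 and H3f3b 0.05 ± 0.11. Among the other clustered genes 43 of 47 had a negative value in the authors' deposited table, and 5 had an unadjusted p under 0.05, all negative, against 0.971% of all genes there in that direction.

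**Figure D4:**
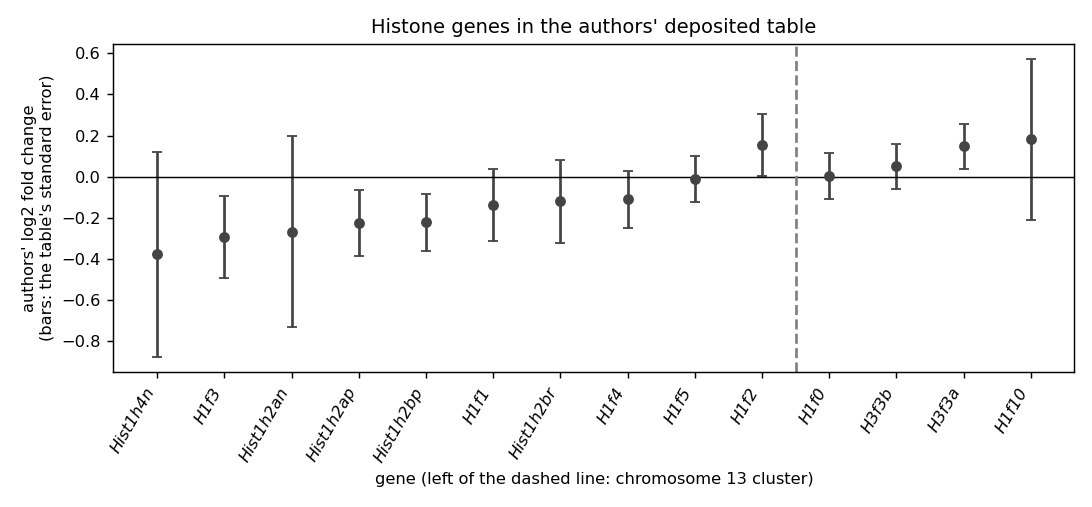
Log2 fold change with its SE from the authors' deposited table, for the 14 histone genes with a base mean of at least 50; negative values stand for a lower level where Msx1 is lower. Of 10 cluster genes 9 are negative and the 4 genes outside are positive, and H1f0 lies at 0.00.

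Levels of some cluster genes stood apart by litter. In a limma fit over litters, chosen after the data were seen, 0 of 12152 genes passed an adjusted p of 0.05 (0%), and 509 (4.19%) had an unadjusted p under 0.05. Hist1h2bp (F = 20.0, unadjusted p = 0.00107, limma adjusted p = 0.787), H1f1 (unadjusted p = 0.00463, adjusted p = 0.928) and H1f2 (unadjusted p = 0.0478) were the 3 of 16 histone genes among them. Of the 47 other clustered histone genes tested, 12 had an unadjusted p under 0.05 in this limma fit, against 4.19% of all genes. Hist1h2bp had its lowest and H1f1 its highest values in litter 2, in opposite directions within 1 cluster.

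Genes that act with histones were read from fixed lists. Of 31 S phase and replication genes 4 were positive and 27 negative by label, with a median of -0.09, but 13 were positive and 18 negative under median-of-ratios scaling. Of 23 histone chaperone and remodeller genes 5 were positive and 18 negative (10 and 13 under that scaling). Of 17 listed genes for histone mRNA processing 8 were positive and 9 negative (10 and 7 under that scaling). Of 4 listed replication-type histone genes known to give polyadenylated transcripts, 3 were positive and 1 negative. Among the positive ones, H4f16 lies outside the clusters. limma called 0 genes of these lists at adjusted p under 0.05, with 0 higher and 5 lower at an unadjusted p under 0.05, against 1.9% and 4.82% of all genes.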

How the data were processed

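The 6 libraries were grouped by label and litter. The authors deposited TPM per gene for each library, with no counts. Per the submitters' processing notes, Salmon 1.5.2, DESeq2 and the mm10 build were used, with roles not given. Their annotation is not given in the sources used here. Per the file headers, the authors' table holds a base mean (a signal that is never negative), a log2 fold change with its standard error, a Wald score, and unadjusted and adjusted p-values, copied as deposited.

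TPM are not counts, so limma 3.58.1 in R 4.3.3 (variance trend, robust) was fitted to log2(TPM + 1) for genes with at least 1 TPM in 3 or more of the 6 libraries. Folds on this scale understate the changes of weakly expressed genes. Benjamini-Hochberg adjustment ran over all genes tested. Shares were computed in Python 3.11.15 and tested by exact permutation over libraries. The fit was tested on simulated data. P-values rest on the spread between embryos. Alternatives covered the pseudocount, the filter, scaling, the litter block and each library left out.

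The members and lists were chosen with earlier results of these data known. Genes named were Msx1, variants with a mean of at least 1 TPM, the 12 highest clustered genes, and the 4 smallest p-values in each direction; the few others were named after their values were seen. The design text gives 1 embryo of each genotype per litter, so litter numbers pair the libraries; deviations of littermates from their group means correlated at -0.05, -0.03 and -0.03 (Pearson, over genes).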

Additional observations from a re-analysis of the deposited data

How the results depend on the processing

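No histone gene passed an adjusted p of 0.05 in limma under any setting run, and the smallest adjusted p was 0.328. With the litter as a replicate block, limma called 0 genes, and exact sign flips within litters gave p = 0.25 for the cluster share, the smallest p they allow. Leaving out single libraries gave 0 to 1 genes higher and 0 to 1 lower over all genes (1 higher without the control of litter 1, 1 lower without the mutant-labelled library of litter 1), and 0 to 4 differing between litters (4 and 2 without the mutant-labelled libraries of litters 1 and 2, 1 without the control of litter 3). Without H3f3a, the label difference in the share of H1f and H3f3 genes was 0.0212 percentage points, and that of genes outside the cluster 0.00157; leaving out single libraries moved the former between -0.0315 and 0.00274. Of the 16 tested genes 7 kept their sign in every setting; 9 reversed in some, 8 of them only on leaving out a library. H1f5 was at -0.057 under quantile normalization. On leaving out single libraries the log2 difference ranged from -0.020 to 0.084 for H1f5, -0.039 to 0.082 for H3f3b, -0.11 to 0.26 for H1f2, -0.038 to 0.42 for H1f1, -0.037 to 0.17 for Hist1h2br, -0.058 to 0.59 for Hist1h2bp, -0.012 to 0.067 for H1f0, -0.24 to 1.08 for Hist1h2ao and -0.19 to 0.32 for H1f6. The cause was not tested. Scaling by median of ratios moved the median of all genes from -0.06 to -0.003. Depth is unknown and sets no stated limit.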

Other observations

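Among the variant histone genes listed under newer symbols, H2az1, which encodes the H2A.Z variant found at promoters, had a higher level than any of the 20 genes: 2972, 3392 and 2775 TPM in the mutant-labelled libraries and 3449, 3362 and 3720 TPM in the controls. H2ax, whose product is phosphorylated at DNA breaks, was between 549.5 and 624 TPM in every library. H2aj was at 32.6, 40.9 and 42.1 TPM against 28.4, 28.7 and 25.5 TPM, with no overlap between labels. Its log2 difference was 0.46 ± 0.12 (SE), with a limma adjusted p of 0.669. Of the 9 tested genes with newer symbols outside the clusters, 1 was in that order, against 2.73% of all genes tested. In the authors' deposited table H2aj stands at -0.34 ± 0.33 (SE). Macroh2a1 and Macroh2a2, which encode the macroH2A variants, were at 130.02 to 148 and 244 to 267 TPM. The testis genes H2ab1, H2ab2 and H2ab3 were listed at 0 in all 6 libraries.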
